A study of Mus musculus with 42 samples.

Results

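The genes described here are the nuclear genes for the subunits of oxidative phosphorylation, the set of complexes in the inner mitochondrial membrane that passes electrons to oxygen and uses the resulting proton gradient to make ATP. They were chosen by name alone. A gene was taken when the symbol of a single-gene probe set starts with Nduf (complex I), Uqcr (complex III), Cox4, Cox5, Cox6, Cox7 or Cox8 (complex IV) or Atp5 (complex V, the ATP synthase), without the Ndufaf assembly factors, Atp5s and pseudogenes. Where a gene had several probe sets, the one with the highest mean over all arrays stood for it. This gave 78 of the 18193 genes tested, with 34 in complex I, 8 in complex III, 19 in complex IV and 17 in complex V. Ndufa4 and its paralog Ndufa4l2, named for complex I, were counted with complex IV, to which Ndufa4 is now assigned. The rule for genes uses no measured value, but it was set with earlier results of these data known.

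The arrays measured total RNA of snap-frozen, microdissected striatum and hippocampus from C57BL6 mice, either carrying a PDE10A knockout (KO) or wild type (WT), that had received an inhibitor of PDE10 (PDE10i) or vehicle (Veh). PDE10A breaks down cAMP and cGMP and is abundant in the projection neurons of the striatum. In striatum there were 4 KO PDE10i, 5 KO Veh, 6 WT PDE10i and 5 WT Veh arrays. In hippocampus there were 5 KO PDE10i, 5 KO Veh, 6 WT PDE10i and 6 WT Veh arrays. The compound, its dose, the time after dosing, the age of the mice and the part of Pde10a that was removed are not named in the labels. The labels do not say whether each array of a group is a different animal, and the p-values therefore describe the spread among these samples alone, which may be technical. Precision is limited by the number of arrays. Values are log2 signals, a difference of 1 being 2-fold, and errors on differences are standard errors (SE).

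Neurons draw most of their ATP from oxidative phosphorylation. Complex I takes electrons from NADH through core subunits that carry iron-sulfur clusters and flavin, held together by many accessory subunits. Complex III passes them on to cytochrome c, complex IV hands them to oxygen, and complex V turns the proton flow into ATP. Most of the subunits are nuclear genes, the rest lie on mitochondrial DNA, and several complex IV subunits exist in a common form and in forms known from heart, muscle, testis or lung.

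The labels were checked first. Striatal projection neuron markers averaged 11.50 to 12.46 on the striatal arrays, against 7.37 to 7.94 on the hippocampal arrays. Pde10a was not lower on the arrays labelled KO. Its striatal means were 12.42 in KO PDE10i, 12.35 in KO Veh, 12.49 in WT PDE10i and 12.32 in WT Veh, and its hippocampal means were 9.69, 9.47, 9.27 and 9.0 in the same order. Loss of the gene escapes a probe set that lies outside the deleted stretch. Only the probe set used for Pde10a was looked at. Its place relative to the deletion is not known, so it gives no check that the gene was removed. In hippocampus it lay at 9.51 to 9.81 in KO PDE10i and at 8.94 to 9.04 in WT Veh. The other hippocampal groups spread more widely, at 9.04 to 10.16 in KO Veh and 8.54 to 9.88 in WT PDE10i. In striatum the ranges of KO PDE10i (12.09 to 12.99) and WT Veh (12.06 to 12.65) overlapped. The reason was not tested. Pde10a lies on chromosome 17, and a score from 15 other genes there was made after the values had been seen. For each region, its 15 genes had the smallest limma p for KO against WT labels in the other region. The genotype labels of all arrays thus entered the choice of its genes. The score was scaled to a median of 0 in WT Veh and 1 in KO PDE10i. By this score, 8 arrays lay on the other genotype's side of 0.5. They were KO Veh 25 (0.10) and WT PDE10i 13, 14 and 15 (0.59, 0.79 and 0.54) in striatum, and KO Veh 25 and 26 (0.00 and 0.11) and WT PDE10i 12 and 14 (1.04 and 0.79) in hippocampus. The numbers are those of the array titles. For KO Veh 25 and WT PDE10i 14, the arrays of both regions were on the other side. For the other numbers, the array of the other region lay on its labelled side. These were KO Veh 26 (0.80) and WT PDE10i 12 (0.03) in striatum, and WT PDE10i 13 and 15 (0.23 and 0.02) in hippocampus. The score thus does not give 1 genotype per title number, and the labels do not say whether such arrays share an animal. These 8 arrays are called the arrays of doubted genotype, all statements on KO and WT rest on the labels, and changes of calls or of direction without the 8 arrays are given beside the results. The genes Cox7a2l, Ndufa7, Ndufb10, Ndufv2 and Ndufv3 lie on chromosome 17 themselves, and none was part of the score.

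Promoters of oxidative phosphorylation genes are known to hold sites for NRF1, for ETS factors such as GABP, and for YY1. RefSeq promoter windows of assembly GRCm38.p6, from 250 bases before to 50 bases after the gene start, were matched for 64 of the 78 genes. They were searched on both strands for CGCATGCG (core of the NRF1 site), CCGGAAG (ETS) and AAGATGG (YY1). The NRF1 core was found for 8 of the 64 genes (12.5%), against 2.07% of all 27025 genes with a window, a gene with several windows counting once. The ETS letters were found for 15 (23.4%, against 9.93%) and the YY1 letters for 10 (15.6%, against 7.28%). For comparison, the Sp1 letters GGGCGG were found for 27 (42.2%, against 38.2%) and the TATA letters TATAAA for 8 (12.5%, against 15.7%). The genes with CGCATGCG were Atp5g2, Atp5j, Atp5k, Atp5l, Cox6a1, Ndufa8, Uqcr11 and Uqcrc1. The windows below, each from the minus strand and written 5′ to 3′, belong to 4 genes that lead the striatal comparisons and differ in these letters. Uqcr11 (chr10:80406772-80407071) holds the NRF1 core and the ETS letters, Atp5md (chr19:47090598-47090897) the ETS letters in reverse complement, Atp5j2 (chr5:145191492-145191791) the YY1 letters, and Ndufa1 (chrX:37191189-37191488) none of the 3. Capitals mark the matches, which are a description of the letters and not a measured site.
Uqcr11: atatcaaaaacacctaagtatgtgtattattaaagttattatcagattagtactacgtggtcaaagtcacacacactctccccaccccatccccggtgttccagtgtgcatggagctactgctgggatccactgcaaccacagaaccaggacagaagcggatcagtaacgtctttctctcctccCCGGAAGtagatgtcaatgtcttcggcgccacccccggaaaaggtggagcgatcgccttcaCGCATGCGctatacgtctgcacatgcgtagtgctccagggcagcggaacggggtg
Atp5md: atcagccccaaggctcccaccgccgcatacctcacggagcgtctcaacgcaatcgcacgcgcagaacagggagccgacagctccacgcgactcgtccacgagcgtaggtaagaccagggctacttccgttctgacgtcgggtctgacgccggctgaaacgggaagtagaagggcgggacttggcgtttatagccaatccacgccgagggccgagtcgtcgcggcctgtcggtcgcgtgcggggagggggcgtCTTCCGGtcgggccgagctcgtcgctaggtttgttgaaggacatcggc
Atp5j2: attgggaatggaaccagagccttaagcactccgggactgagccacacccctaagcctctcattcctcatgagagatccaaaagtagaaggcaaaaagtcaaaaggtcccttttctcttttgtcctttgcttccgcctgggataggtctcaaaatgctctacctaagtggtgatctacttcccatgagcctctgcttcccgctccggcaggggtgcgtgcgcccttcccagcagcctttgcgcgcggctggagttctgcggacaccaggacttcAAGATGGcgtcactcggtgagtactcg
Ndufa1: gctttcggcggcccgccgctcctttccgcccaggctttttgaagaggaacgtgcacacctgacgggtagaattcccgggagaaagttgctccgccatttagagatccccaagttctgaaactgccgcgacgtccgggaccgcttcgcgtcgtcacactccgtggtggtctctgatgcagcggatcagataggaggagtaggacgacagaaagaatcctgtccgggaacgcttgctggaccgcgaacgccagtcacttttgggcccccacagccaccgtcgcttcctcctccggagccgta

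Most of the genes were bright. The mean over the 42 arrays was 9 or more for 67 genes, between 9.64 (Ndufs4, an accessory subunit of complex I) and 13.72 (Cox6a1, the common form of a complex IV subunit). The range was 4.49 (Ndufb4) to 12.22 (Ndufa3) in complex I, 10.73 (Uqcrfs1, the Rieske iron-sulfur protein) to 12.88 (Uqcrb) in complex III, 3.94 (Cox7b2) to 13.72 in complex IV, and 10.66 (Atp5g2) to 13.20 (Atp5b, the catalytic beta subunit) in complex V. A signal depends on its probe set as well as on the RNA, so these ranges do not rank the subunits. The other 11 genes lay at 3.94 to 7.89. They are the complex I accessory subunits Ndufb1 and Ndufb4, the complex IV subunit Cox7c, the NDUFA4 paralog Ndufa4l2 and the tissue forms Cox4i2, Cox6a2, Cox6b2, Cox7a1, Cox7b2, Cox8b and Cox8c.

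In WT striatum, most subunit genes were slightly higher after the inhibitor, and none passed the test over all genes. Of the 78 genes, 71 had a positive WT PDE10i minus WT Veh difference, with a median of 0.10 (log2), where 49.8% of all genes had one. All 8 genes of complex III and all 17 of complex V were positive, with 31 of 34 in complex I and 15 of 19 in complex IV. The medians were 0.12, 0.10, 0.08 and 0.08 in that order. By limma with Benjamini-Hochberg adjustment over all genes, 0 of the 78 passed an adjusted p of 0.05, where 0.181% of all genes did. At an unadjusted p under 0.05 there were 15, all higher, with a background of 9.57% in either direction. In bulk tissue, fewer cells of a type and less RNA per cell cannot be told apart, and neither can their opposites.

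Ndufa1, a small accessory subunit in the membrane arm of complex I that is needed for its assembly, had the smallest p. Its log2 signal was 12.21, 12.34 and 12.50 (lowest, median and highest) in WT PDE10i striatum, against 12.15, 12.15, 12.14, 12.03 and 12.08 in WT Veh striatum. Every WT PDE10i array thus lay above every WT Veh array. The difference was 0.24 ± 0.07 (1.18-fold, limma adjusted p = 0.176). Cox7a2l is known for a part in joining complexes III and IV into supercomplexes, which was not tested in these mice. It had 10.85, 10.94 and 11.05 in WT PDE10i striatum, against 10.74, 10.65, 10.70, 10.84 and 10.79 in WT Veh striatum. Its groups did not overlap either (0.20 ± 0.06, adjusted p = 0.222), and its 3 probe sets gave 0.20, 0.20 and 0.17. Atp5md, a small membrane subunit that takes part in joining ATP synthase into dimers, had 11.62, 11.70 and 11.76 in WT PDE10i striatum, against 11.55, 11.56, 11.51, 11.60 and 11.50 in WT Veh striatum. The groups were again separate (0.15 ± 0.05, adjusted p = 0.248).

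Uqcr11, a small subunit of complex III, spread more widely. It had 11.63, 11.79, 11.80, 11.39, 11.26 and 11.55 on WT PDE10i arrays 10 to 15, against 11.30, 11.36, 11.28, 11.30 and 11.30 in WT Veh striatum. Array 14 lay below all WT Veh arrays, while arrays 10, 11 and 12 stood highest (0.26 ± 0.09, adjusted p = 0.281). Atp5g1, one of the genes for the proton-carrying c ring of ATP synthase, had 10.98, 11.29 and 11.51 in WT PDE10i striatum, against 11.08, 11.08, 10.98, 10.87 and 11.05 in WT Veh striatum, and the groups overlapped (0.25 ± 0.10, adjusted p = 0.392). The genes with the lowest differences were the tissue forms Cox8b (-0.24), Cox6b2 (-0.18) and Cox8c (-0.07). Choroid plexus markers were lower on average in the same comparison, all 5 of them (median -0.55). Among 82 other probe sets of these genes, which were not used in the fit, 68 had a positive difference with a median of 0.08.

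**Figure D1:**
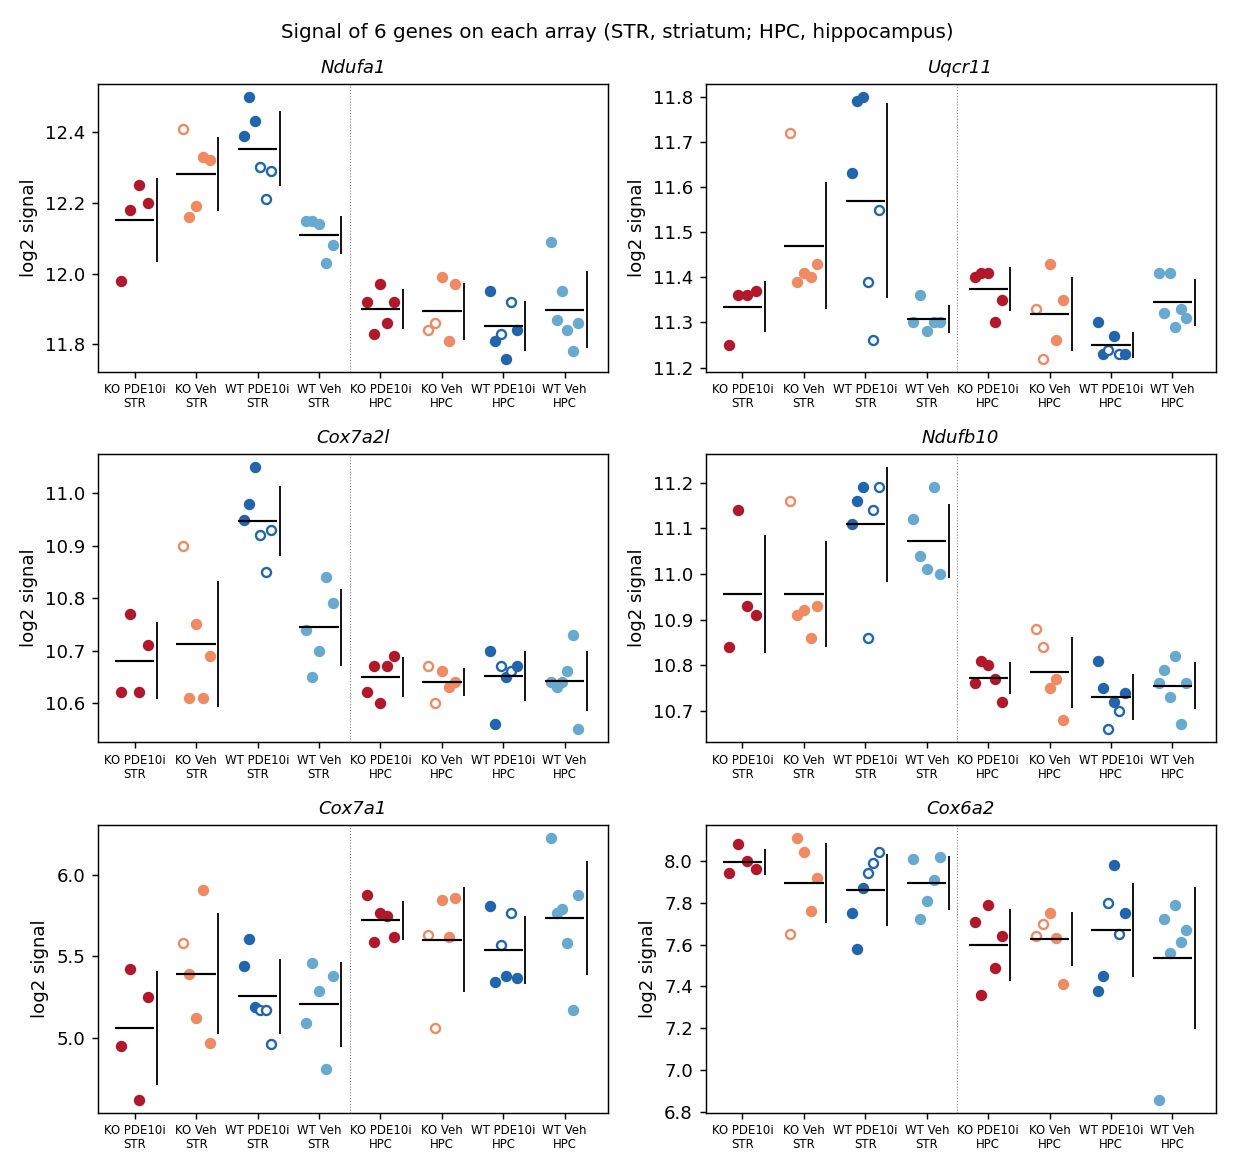
Log2 signal of Ndufa1, Uqcr11, Cox7a2l, Ndufb10, Cox7a1 and Cox6a2 on each of the 42 arrays, by group, with KO PDE10i, KO Veh, WT PDE10i and WT Veh of striatum (STR) left of those of hippocampus (HPC). Points are arrays, open points are the 8 arrays of doubted genotype, horizontal black lines are group means and vertical black lines are ± 1 SD. The group means of Ndufa1 and Ndufb10 are higher in striatum in all 4 groups, and the highest Uqcr11 values (11.79 and 11.80) are on filled WT PDE10i arrays of striatum.

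The WT PDE10i arrays of striatum differed among themselves. The mean over the 78 genes was 10.97, 11.03, 11.01, 10.83, 10.85 and 10.91 on WT PDE10i arrays 10 to 15 of striatum, against 10.88, 10.88, 10.84, 10.79 and 10.84 in WT Veh striatum. Arrays 10, 11 and 12 stood above all WT Veh arrays. Of the WT PDE10i arrays of doubted genotype, 13 and 14 lay within the WT Veh range and 15 above it. On arrays 10, 11 and 12, 69, 69 and 67 of the 78 genes lay above the striatal median of the gene, against 24, 27 and 57 on arrays 13, 14 and 15 and 19 to 47 in WT Veh striatum. KO Veh 25, which has a score near that of WT arrays, had a mean of 10.99 and 64 genes above the median. The other KO Veh arrays had means of 10.83 to 10.89, and the 4 KO PDE10i arrays had 10.80, 10.81, 10.82 and 10.84. Group means were 10.82 ± 0.02 (SD, n = 4) in KO PDE10i, 10.88 ± 0.06 (n = 5) in KO Veh, 10.93 ± 0.09 (n = 6) in WT PDE10i and 10.85 ± 0.04 (n = 5) in WT Veh striatum. Because RMA equalises the distribution of values across arrays, a shift of these genes is relative to the other genes.

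**Figure D2:**
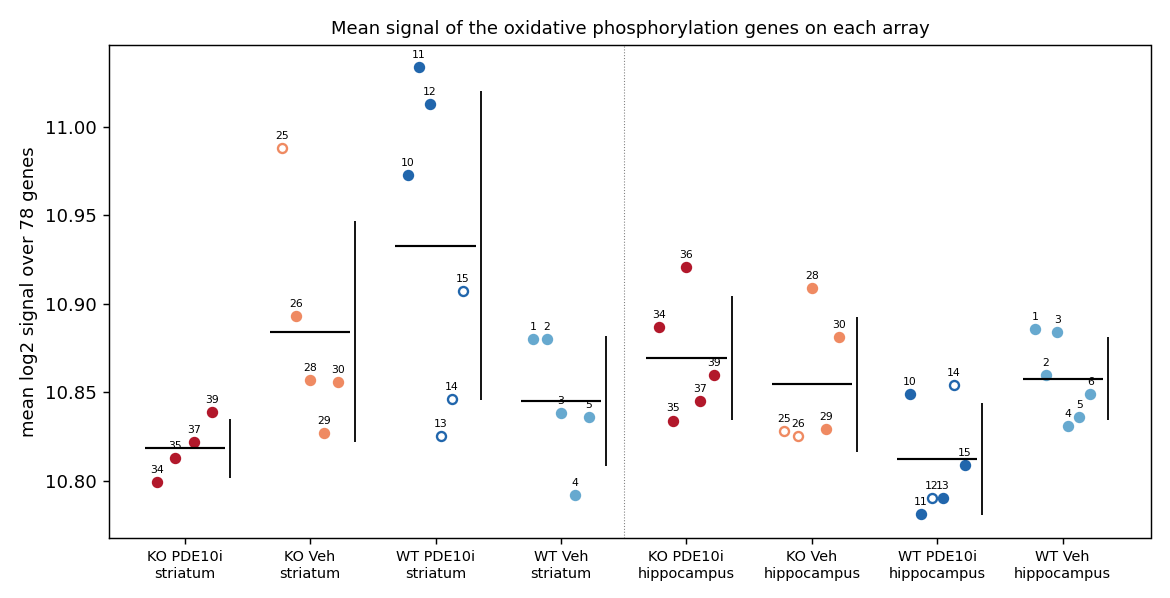
Mean log2 signal over the 78 oxidative phosphorylation genes on each array, by group, with each array's title number beside its point. Open points are the 8 arrays of doubted genotype, black horizontal lines are group means and black vertical lines are ± 1 SD. In striatum, WT PDE10i 10, 11 and 12 and KO Veh 25 stand highest at 10.97 to 11.03, and the 4 KO PDE10i arrays lie at 10.80 to 10.84.

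Without the arrays of doubted genotype, which leaves WT PDE10i arrays 10, 11 and 12, 11 of the 78 genes rose in WT PDE10i against WT Veh striatum, where 4.23% of all genes passed in either direction. Uqcr11 rose by 0.43 ± 0.06 (1.35-fold, limma adjusted p = 0.000487), Atp5g1 by 0.45 ± 0.07 (1.37-fold, 0.00146) and Ndufa1 by 0.33 ± 0.07 (1.25-fold, 0.0175). Atp5md, Atp5j2, Cox7a2l and Ndufb1 rose by 0.20, 0.24, 0.25 and 0.34. The remaining 4 are named here because they passed: Ndufv3 (0.29), Atp5e (0.29), Uqcrq (0.31) and Uqcr10 (0.31). Of the 78 genes, 69 were positive and the median was 0.18. Markers of blood vessel cells moved with these arrays. The mean of 6 vascular markers was 8.91, 8.98 and 9.07 on WT PDE10i 10, 11 and 12 and 9.0 on KO Veh 25, against 8.58, 8.46 and 8.73 on WT PDE10i 13, 14 and 15 and 8.33 to 8.54 in WT Veh striatum. All 6 of these markers were higher on average in WT PDE10i striatum (median 0.34). The mean of 7 glutamatergic neuron markers of cortex and hippocampus was lower, at 6.62 (6.16 to 7.47) in WT PDE10i striatum, against 7.29 (6.07 to 7.98) in WT Veh striatum. Of these 7 markers, 2 were higher on average (median of the 7 -0.54). Without the doubted arrays, 1 of the 7 passed as higher and 0 as lower. The part of either set of markers in the result was not tested. The log2 difference between the 3' and 5' Gapdh control probe sets rises as RNA is shortened. In several striatal groups this difference was highest where the mean of the 78 genes was low. It was highest within its group on KO Veh 29 (0.60), WT PDE10i 13 (0.66) and WT Veh 4 (1.05), each the array with the lowest mean of the 78 genes in that group, and on KO PDE10i 35 (0.67), the second lowest. With the Gapdh difference as a covariate, 71 of the 78 genes were positive in WT PDE10i against WT Veh striatum, and without each group's array of highest Gapdh difference 69 were.

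In KO striatum most differences with the inhibitor were negative and small. Of the 78 genes, 10 were positive in KO PDE10i minus KO Veh striatum (median -0.07), where 48.2% of all genes were. None of the 78 had an unadjusted p under 0.05 (background 1.41%), and 0 passed the adjusted threshold (background 0%). The smallest p values were those of Atp5k, a small membrane subunit of ATP synthase (-0.10 ± 0.06), Cox7a1 (-0.33 ± 0.19) and Ndufa1 (-0.13 ± 0.07), each with a limma adjusted p of 1. Without KO Veh 25, the KO Veh array of doubted genotype in striatum, 15 of the 78 were positive and the median was -0.04.

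KO Veh against WT Veh striatum, the knockout without inhibitor, gave small differences. There were 57 positive ones (median 0.03), where 49.4% of all genes were positive, with 3 genes at an unadjusted p under 0.05 (background 5.94%) and 0 past the adjusted threshold (background 0.137%). Atp5d, the delta subunit of the rotating stalk of ATP synthase, had 12.17, 12.31, 12.21, 12.30 and 12.36 in KO Veh striatum, against 12.16, 12.11, 12.03, 12.05 and 12.19 in WT Veh striatum. Only KO Veh 25 lay within the WT Veh range (0.16 ± 0.05, limma adjusted p = 0.467). Cox7c, a small subunit of complex IV whose probe set is dim, had 6.93, 6.19, 6.01, 6.22 and 6.32 in KO Veh striatum, against 6.80, 6.64, 6.66, 6.5 and 6.48 in WT Veh striatum. All KO Veh arrays but 25 lay below all WT Veh arrays (-0.28 ± 0.14, adjusted p = 0.85). Without the arrays of doubted genotype, Cox7c fell by 0.43 ± 0.09 (adjusted p = 0.0238) as the 1 gene of the 78 to pass, where 0.797% of all genes did. Of the 78, 48 were then positive (median 0.02), where 48.7% of all genes were.

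KO PDE10i against WT PDE10i striatum shares its WT PDE10i arrays with the inhibitor comparison in WT mice. In it, 70 of the 78 genes were negative, with a median of -0.14, where 46.5% of all genes were positive. None of the 8 complex III genes and 1 of the 17 complex V genes was positive. At an unadjusted p under 0.05 there were 26, all lower (background 12.2%), and 0 passed the adjusted threshold (background 0%). Cox7a2l had 10.62, 10.77, 10.62 and 10.71 in KO PDE10i striatum, all below the WT PDE10i range of 10.85 to 11.05 (-0.27 ± 0.07, limma adjusted p = 0.173). Its 3 probe sets gave -0.27, -0.32 and -0.26. Atp5j2, the f subunit in the membrane part of ATP synthase, had 12.06, 12.10, 12.19 and 12.09 in KO PDE10i striatum, against 12.23, 12.33 and 12.45 (lowest, median and highest) in WT PDE10i striatum, again without overlap (-0.23 ± 0.06, adjusted p = 0.183). Atp5md (11.52, 11.58, 11.54 and 11.55 in KO PDE10i striatum) lay below its WT PDE10i range as well (-0.15 ± 0.05, adjusted p = 0.221).

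Without the arrays of doubted genotype, 19 of the 78 genes fell in KO PDE10i against WT PDE10i striatum, where 6.52% of all genes passed in either direction. Uqcr11 fell by 0.41 ± 0.06 (limma adjusted p = 0.000781), Atp5g1 by 0.45, Cox7c by 0.57, Cox7a2l by 0.31 and Atp5j2 by 0.30. The 6 vascular markers were all lower as well, with a median of -0.27 with all arrays and -0.53 without the doubted ones, where 3 passed. Tested directly, the inhibitor effect in WT minus that in KO striatum was positive for 70 of the 78 genes (median 0.16), where 51.7% of all genes were positive. It reached an unadjusted p under 0.05 for 18, all positive (background 7.4%), and the adjusted threshold for 0 (background 0%). The smallest p values belonged to Ndufa1 (0.37 ± 0.10, adjusted p = 0.404), Atp5md (0.22 ± 0.07, 0.514) and Ndufb1, a dim complex I accessory subunit (0.39 ± 0.13, 0.514). Without the arrays of doubted genotype, Uqcr11 (0.50 ± 0.08, adjusted p = 0.00553) and Atp5g1 (0.53 ± 0.10, 0.0139) passed, where 0.868% of all genes did.

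**Figure D3:**
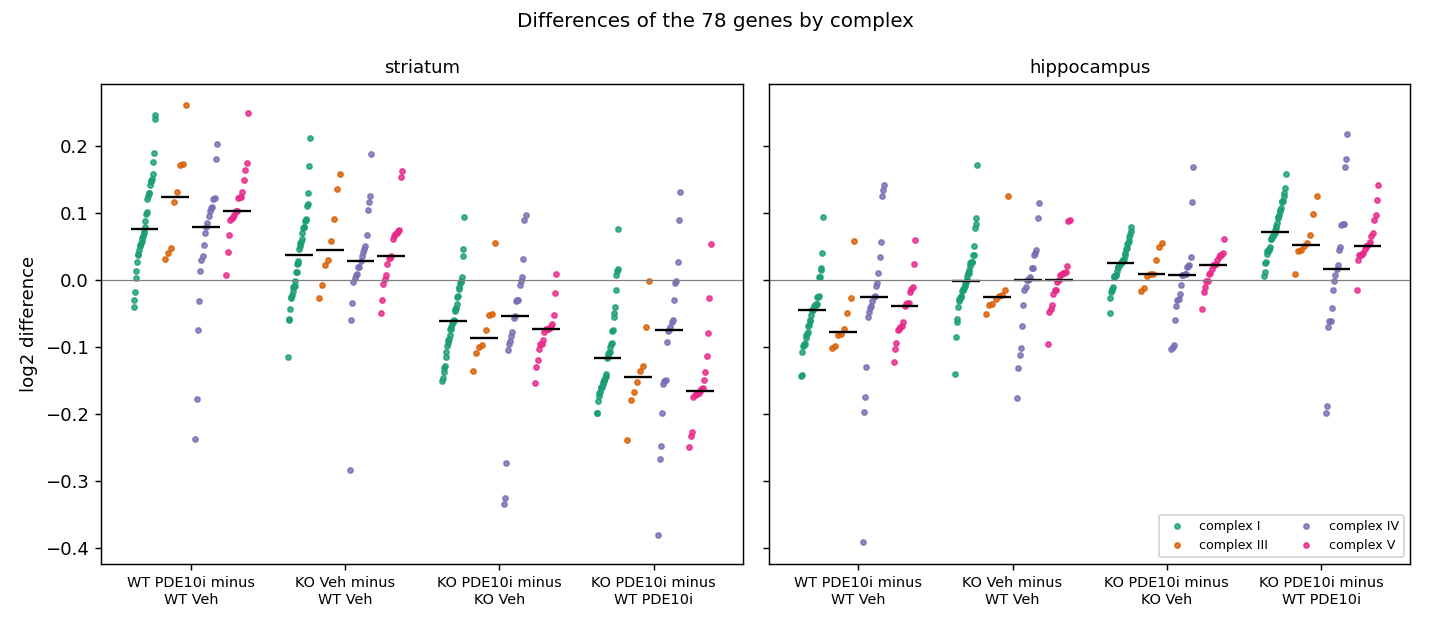
Log2 differences of the 78 genes by complex in 4 comparisons of striatum (left panel) and the same 4 of hippocampus (right panel). Each point is a gene and each black line the median of a complex. In striatum the 8 complex III and 17 complex V genes are all above 0 in WT PDE10i minus WT Veh, and 0 and 1 of them are above 0 in KO PDE10i minus WT PDE10i. In hippocampus most points of the first comparison lie below 0 and most of the last above 0.

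In WT hippocampus most subunit genes were slightly lower after the inhibitor, but this changed with the scaling. In WT PDE10i against WT Veh hippocampus, 15 of the 78 genes were positive (median -0.04), where 47.7% of all genes were positive. With each array centred on its own median, 39 were positive and the median was 0.00, while 67.1% of all genes were positive, so the sign of many differences depends on the scaling. At an unadjusted p under 0.05 there were 15, all lower (background 10.7%), and 0 passed the adjusted threshold (background 0%). Cox7b2, a form of a complex IV subunit known from testis, had 3.38, 3.61 and 3.89 in WT PDE10i hippocampus, against 3.74, 4.02 and 4.21 in WT Veh hippocampus (lowest, median and highest). The ranges overlapped, and these are among the dimmest signals of the list (-0.39 ± 0.10, limma adjusted p = 0.273). Ndufs8, a core subunit of complex I that carries iron-sulfur clusters, had 11.31, 11.36 and 11.42 in WT PDE10i hippocampus, against 11.41, 11.45 and 11.49 in WT Veh hippocampus (-0.09 ± 0.03, adjusted p = 0.353). The ranges touched, with the highest WT PDE10i array just above the lowest WT Veh array. Ndufs4, an accessory subunit whose loss in mice gives a Leigh-like brain disease, had 9.38, 9.49 and 9.64 in WT PDE10i hippocampus, against 9.54, 9.66 and 9.69 in WT Veh hippocampus (-0.14 ± 0.04, adjusted p = 0.343), with overlapping ranges.

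KO Veh against WT Veh hippocampus gave 37 positive differences (median 0.00), where 52% of all genes were positive, 8 unadjusted calls (5 higher and 3 lower, background 6.62%) and 0 adjusted ones (background 0%). Without the doubted arrays, 2 of the 5 KO Veh arrays among them, 57 were positive (median 0.02), where 54.8% of all genes were. Uqcrc2, a core protein of complex III, had 11.44, 11.49, 11.41, 11.44 and 11.38 in KO Veh hippocampus, above all WT Veh arrays at 11.27 to 11.35 (0.13 ± 0.04, limma adjusted p = 0.612). Ndufb6, a membrane-arm accessory subunit, was 0.17 ± 0.06 higher on average (adjusted p = 0.621) and Cox7c 0.18 ± 0.07 lower (-0.18, adjusted p = 0.697). The inhibitor in KO hippocampus gave 56 positive differences (median 0.02), where 56.9% of all genes were positive, 1 unadjusted call (background 3.82%) and 0 adjusted ones (background 0%). The lean to positive was absent without the doubted arrays (39 positive, median 0.00, against 54.6% of all genes) and with arrays centred (35 positive, median 0.00, against 44.9% of all genes). The gene called was Cox7c (0.17 ± 0.07, adjusted p = 0.993). Next were Ndufs1, the largest iron-sulfur core subunit of complex I (0.07 ± 0.05), and Ndufa6, an accessory subunit of its matrix arm (0.07 ± 0.05).

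In KO PDE10i against WT PDE10i hippocampus, 69 of the 78 genes were positive (median 0.06), where 56% of all genes were, among them all 34 genes of complex I and all 8 of complex III. With arrays centred, 41 of the 78 were positive and the median was 0.00, where 35.9% of all genes were positive. There were 22 unadjusted calls, 20 of them higher (background 15.6%), and 0 adjusted ones (background 0.0055%). Ndufs8 had 11.46, 11.44, 11.53, 11.51 and 11.44 in KO PDE10i hippocampus, all above the WT PDE10i range of 11.31 to 11.42 (0.12 ± 0.03, limma adjusted p = 0.194). Ndufa10, an accessory subunit of complex I, had 11.12, 11.25, 11.25, 11.19 and 11.21 in KO PDE10i hippocampus, against 11.01 to 11.13 in WT PDE10i hippocampus, with a slight overlap (0.13 ± 0.04, adjusted p = 0.198). Uqcr11 was 0.13 ± 0.04 higher on average (adjusted p = 0.21). The inhibitor effect in WT minus that in KO hippocampus was positive for 15 of the 78 (median -0.06), where 44.7% of all genes were, with 11 unadjusted calls, all negative (background 11.8%), and 0 adjusted ones (background 0%). With arrays centred, 40 were positive (median 0.00), where 63.5% of all genes were. The smallest p was that of Cox7c (-0.34 ± 0.10, adjusted p = 0.329), then Ndufs4 (-0.19 ± 0.07) and Ndufa6 (-0.18 ± 0.06). Without the arrays of doubted genotype 0 of the 78 genes were called by limma in any of the 5 hippocampal comparisons. In the order given here, the unadjusted counts were then 7 (background 5.51%), 2 (3.99%), 1 (2.14%), 11 (9.01%) and 2 (3.8%).

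The regional comparisons set striatum against hippocampus within each group, and here subunit genes passed the test. In WT PDE10i arrays, 37 of the 78 genes were higher in striatum and 1, Cox8a, was lower, where 35.6% of all genes passed, 18.4% higher and 17.2% lower. In KO Veh, 7 were higher and 3 lower (background 27.3%, with 12.5% higher and 14.8% lower). In KO PDE10i, 4 were higher and 8 lower (26.1%, with 10.6% and 15.5%), and in WT Veh, 5 were higher and 8 lower (33.9%, with 15.9% and 17.9%). In the last 3 groups the share of the 78 that passed in either direction was thus below the background. A minimum mean log2 signal of 6 left out Cox4i2, Cox7a1, Cox7b2 and Ndufb4. Then 38 subunit genes passed in WT PDE10i, where 51.6% of the 11469 genes kept did. Among genes of this brightness, the share of subunit genes that passed in WT PDE10i was thus close to the background. In KO Veh 13 passed (40.5%), in KO PDE10i 12 (39.2%) and in WT Veh 13 (48%). With all genes, positive differences numbered 23 in KO PDE10i, 48 in KO Veh, 67 in WT PDE10i and 38 in WT Veh. Of all genes, 51.2%, 53.4%, 51.3% and 55.1% were positive. With arrays centred on their medians they numbered 45, 57, 69 and 51 in the same order of groups, where 65.4%, 63.8%, 56% and 64.3% of all genes were positive, so in KO PDE10i and WT Veh the balance of signs turned with the scaling. With centred arrays, 6 genes passed as higher and 2 as lower in KO PDE10i (background 17.5% higher and 11.4% lower), 19 and 1 in KO Veh (16.5% higher and 12.1% lower), 42 and 1 in WT PDE10i (20.1% higher and 16% lower) and 16 and 5 in WT Veh (22.1% higher and 14.6% lower). Over the 4 groups, 50 genes passed in at least 1 and 28 in none. There were 39 genes higher in at least 1 group, of which 29 passed in WT PDE10i and in no other group. There were 12 genes lower in at least 1. These counts over groups were made for the 78 genes alone, so no share of all genes stands beside them. Ndufb3, a membrane-arm accessory subunit, passed both ways, at 0.15 in WT PDE10i and -0.13 in WT Veh.

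The genes Ndufa1 and Ndufb10 passed in all 4 groups, both higher in striatum. Ndufa1 had 11.98, 12.18, 12.25 and 12.20 in KO PDE10i striatum, against 11.92, 11.83, 11.97, 11.86 and 11.92 in KO PDE10i hippocampus. The regions did not overlap in that group. The difference was 0.26 ± 0.06 in KO PDE10i (limma adjusted p = 0.00219), 0.39 ± 0.06 in KO Veh (2.61e-06), 0.50 ± 0.06 in WT PDE10i (1.16e-09) and 0.22 ± 0.06 in WT Veh (0.00322). Ndufb10, a further accessory subunit of the membrane arm, had 10.84, 11.14, 10.93 and 10.91 in KO PDE10i striatum, against 10.76, 10.81, 10.80, 10.77 and 10.72 in KO PDE10i hippocampus. Its striatal arrays lay at 10.84 to 11.19 over all groups, and its hippocampal arrays at 10.66 to 10.88. The difference was 0.18 ± 0.06 in KO PDE10i (adjusted p = 0.0262), 0.17 ± 0.06 in KO Veh (0.0254), 0.38 ± 0.05 in WT PDE10i (2.97e-07) and 0.31 ± 0.06 in WT Veh (2.52e-05).

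Other genes passed in some groups. Ndufa10 was lower in striatum in 3 groups, by -0.28 in KO PDE10i, -0.20 in KO Veh and -0.17 in WT Veh, and lay at 10.78 to 11.11 on all striatal arrays, against 11.01 to 11.25 on all hippocampal arrays. Cox8a, the common form of its subunit, was lower by -0.17 in KO PDE10i, -0.15 in WT PDE10i and -0.21 in WT Veh. Uqcrfs1 was lower by -0.24 in KO PDE10i and -0.28 in WT Veh. In WT PDE10i the largest differences that passed were those of Cox7b2 (0.60), Ndufa1 (0.50), Ndufb4 (0.44), Ndufb10 (0.38), Cox7c (0.38), Uqcr11 (0.32) and Cox7a2l (0.30), of which Cox7b2, Ndufb4 and Cox7c are dim. Cox8b differed by -0.42 ± 0.35 there and did not pass. The heart and muscle form Cox6a2 had 7.94, 8.08, 8.0 and 7.96 in KO PDE10i striatum, against 7.71, 7.36, 7.79, 7.49 and 7.64 in KO PDE10i hippocampus, without overlap. It passed in KO PDE10i (0.40 ± 0.13) and WT Veh (0.36 ± 0.12). The testis form Cox8c passed in KO PDE10i (0.30), KO Veh (0.30) and WT Veh (0.32), always higher in striatum.

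**Figure D4:**
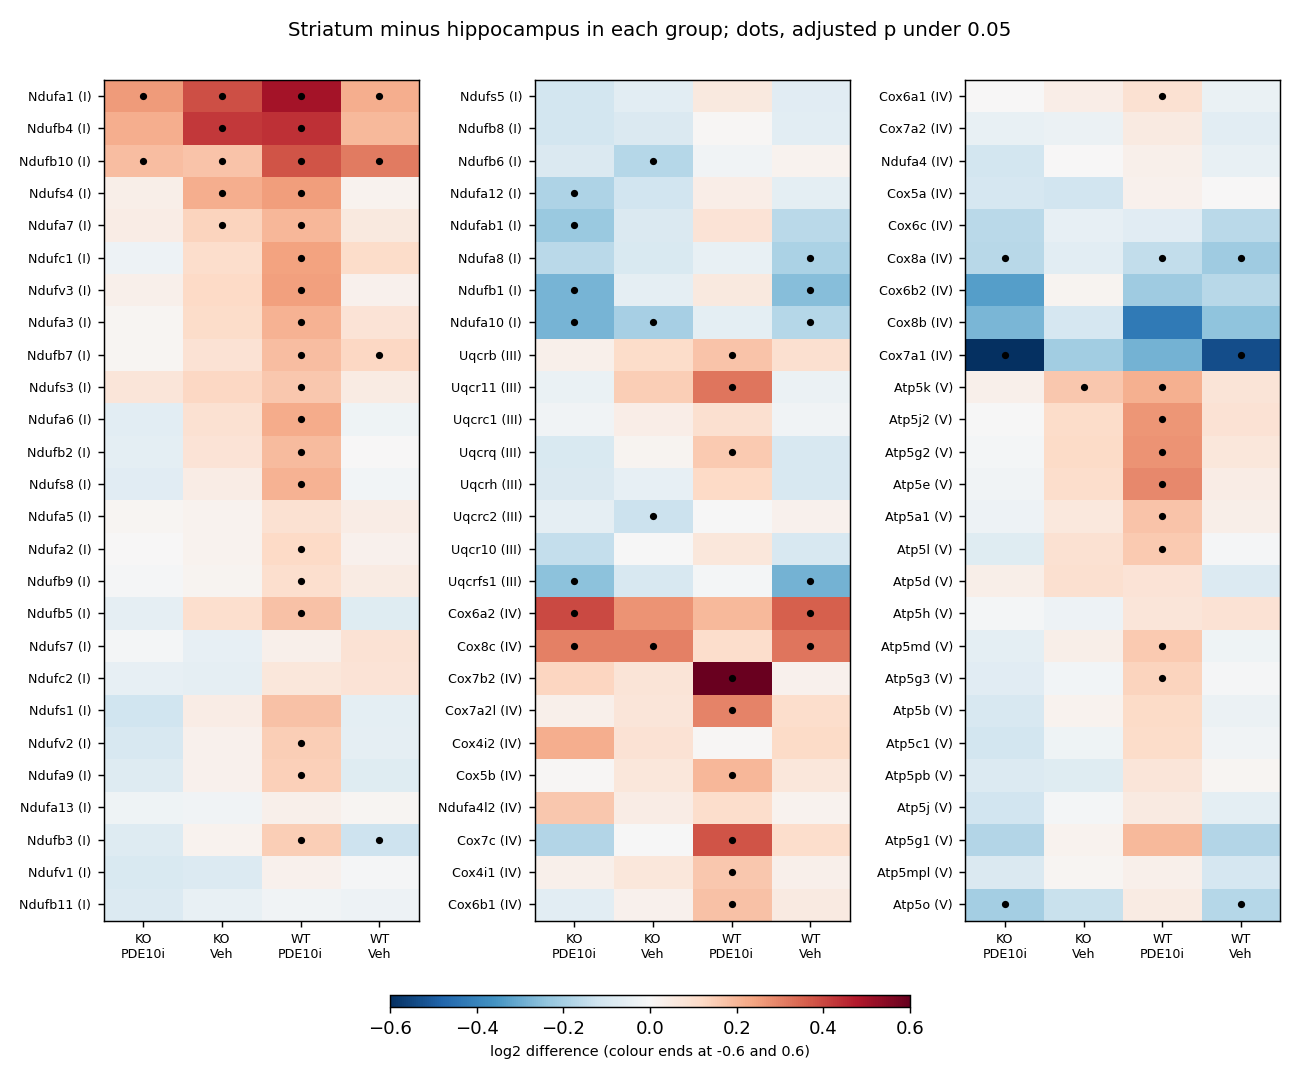
Striatum minus hippocampus log2 difference of each of the 78 genes in KO PDE10i, KO Veh, WT PDE10i and WT Veh, sorted by complex (in brackets) and then by the mean of the 4 differences. Red is higher in striatum, blue lower, dots mark an adjusted p under 0.05, and Cox7a1 in KO PDE10i (-0.66) lies beyond the end of the colour scale. The WT PDE10i column holds 38 of the dots.

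The WT PDE10i column was compared with the vehicle difference directly. The inhibitor effect in WT striatum minus that in WT hippocampus was positive for 68 of the 78 genes (median 0.13), with 35 at an unadjusted p under 0.05, all positive (background 12.7%), and 0 past the adjusted threshold (background 0.214%). The smallest adjusted p was 0.0653, for Cox7b2 (0.57 ± 0.14) and Ndufb3 (0.27 ± 0.07). Uqcr11 (0.36 ± 0.09, limma adjusted p = 0.0743) and Ndufs8 (0.23 ± 0.06, 0.0762) followed. The count depended on single arrays. Without WT PDE10i 14 of striatum 5 genes passed, and without all arrays of doubted genotype 29 passed, where 4.31% of all genes did. The regional difference of the knockout effect was positive for 51 genes with 8 unadjusted calls (background 5.29%), and without the doubted arrays for 37 (median 0.00) with 1 unadjusted call (background 4.23%). That of the inhibitor effect in KO was positive for 12 with 1 unadjusted call (background 1.81%). Both had 0 adjusted calls (background 0.0495% and 0%). Without the doubted arrays, 48 genes were higher in striatum and 0 lower in WT PDE10i (background 15.4% higher and 13.7% lower), 5 higher and 3 lower in KO Veh (8.83% higher and 11.3% lower), 4 and 10 in KO PDE10i (11.1% higher and 15.7% lower), and 5 and 10 in WT Veh (16.4% higher and 18% lower). KO Veh then had 35 positive differences, where 52% of all genes were positive. Without striatal array 35 the regional count was 4 in KO PDE10i, against 12 with it. Without striatal array 4 the regional count was 8 in WT Veh, against 13 with it. Shares of all genes are not given beside the counts that leave out 1 array.

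Several subunits are coded by paralogs. The 3 genes Atp5g1, Atp5g2 and Atp5g3 code for the same mature c subunit. In WT PDE10i against WT Veh striatum they differed by 0.25 ± 0.10, 0.09 ± 0.07 and 0.10 ± 0.06, and in KO PDE10i against WT PDE10i striatum by -0.25, -0.23 and -0.17, with no adjusted call. Cox4i1, the common form of complex IV subunit 4, differed by 0.11 ± 0.07 in the first comparison. Cox7a1, the heart and muscle form of subunit 7a, was lower in striatum than in hippocampus in KO PDE10i (-0.66 ± 0.18) and WT Veh (-0.53 ± 0.17). It had 4.95, 5.42, 4.62 and 5.25 in KO PDE10i striatum, against 5.88, 5.59, 5.77, 5.75 and 5.62 in KO PDE10i hippocampus, without overlap. The muscle form Cox8b and the testis form Cox6b2 spread widely within the groups and lay high on the arrays with high levels of the markers of choroid plexus, the epithelium that makes cerebrospinal fluid and lies beside both regions. On the 7 striatal arrays where the mean of 5 choroid plexus markers was 8.5 or more (8.69 to 10.27), Cox8b had 6.30, 6.83 and 7.55 (lowest, median and highest), against 5.63, 5.79 and 6.08 on the 13 striatal arrays with lower means (5.55 to 7.41). Cox6b2 had 6.68, 7.02 and 7.58, against 5.96, 6.31 and 6.62. Neither range overlapped in striatum. In hippocampus, on 9 arrays above the limit and 13 below it, Cox8b had 6.66, 7.23 and 7.51, against 5.59, 6.04 and 6.59, and Cox6b2 had 7.04, 7.22 and 7.38, against 6.19, 6.32 and 6.69. Cox7a1 had 5.29, 5.46 and 5.91 on the marker-high striatal arrays, against 4.62, 5.12 and 5.44 on the rest, and 5.77, 5.85 and 6.23, against 5.06, 5.58 and 5.77, in hippocampus. The limit of 8.5 was set after the values were seen, and the part of this tissue in the regional differences was not tested.

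Other mitochondrial genes in WT PDE10i against WT Veh striatum are given for comparison, from lists chosen by function. Genes of complex II and of cytochromes c and c1 were positive in 6 of 6 (median 0.14). Cytochrome c1 (Cyc1) is a subunit of complex III that the naming rule left out. Assembly factors were positive in 19 of 24 (0.09) and citric acid cycle genes in 13 of 14 (0.08). Mitochondrial carriers and channels were positive in 9 of 9 (0.10). Glycolytic genes were positive in 8 of 13 (0.02). None of these genes passed with all arrays. Without the arrays of doubted genotype, 4.23% of all genes passed in either direction. Of the lists, 2 genes of complex II and the 2 cytochromes, 3 assembly factors, 2 citric acid cycle genes, 0 carriers and 0 glycolytic genes then rose. Of 10 regulators of mitochondrial genes, 8 were positive with a median of 0.06, and without the doubted arrays 1 rose. That gene was Ppargc1a, a coactivator that promotes mitochondrial biogenesis. It differed by 0.45 ± 0.17 with all arrays (limma adjusted p = 0.377) and rose by 0.81 ± 0.12 without the doubted ones (adjusted p = 0.00126). In KO PDE10i against WT PDE10i striatum it differed by -0.65 ± 0.18 (adjusted p = 0.183) and, without the doubted arrays, fell by 1.01 ± 0.13 (adjusted p = 0.000156). Without those arrays 3 of the 10 regulators were positive in that comparison, and 2, Ppargc1a and the nuclear receptor Esrra (-0.46), fell while 1, Yy1 (0.27 ± 0.07), rose.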

How the data were processed

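The deposited values of the 42 Affymetrix arrays are log2 signals of 45101 probe sets. Per the submitters' processing notes they come from RMA, which corrects for background, gives every array the same distribution of values and combines a set's probes into 1 value, so a difference in total RNA between arrays is removed. Gene names are those of the platform annotation. There were 34945 probe sets with a single gene, 932 with several genes and 9160 with none, and 34741 matched RefSeq (GRCm38.p6, used for names, chromosomes and promoters). The brightest probe set by mean stood for each of 18193 genes, and 46 of the 78 genes had more than 1 probe set.

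Groups came from the array titles. Differences were fitted with limma 3.58.1 (R 4.3.3), using lmFit and eBayes with two-sided p-values that were adjusted by Benjamini-Hochberg over all 18193 genes at a threshold of 0.05. The fit was tested on simulated data. Each region was fitted with its 4 groups together, and regional comparisons used all 42 arrays in 8 groups, giving 17 comparisons. The rule for named genes took the 3 genes with the smallest p of each comparison within a region, those past the threshold in all 4 regional comparisons, paralogs and tissue forms, and the highest and lowest gene of each complex. Other genes were named after their values were seen. The genes, lists and rules were chosen with earlier results of these data known. Lists of marker and related genes are described by counts and medians. No arrays were identical: the most alike pair (r = 0.998) differed with an SD of 0.151.

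Arrays of the 2 regions share title numbers. Over 20 such pairs, deviations from the group means correlated between -0.38 and 0.31, with 6 over 0.1, so the numbers were not taken to pair the samples. Alternatives were the mean of a gene's probe sets, array weights, centred arrays, the Gapdh difference as a covariate, a signal minimum of 6, fits of only the groups compared, a replicate block and leaving out each array. Leaving out the doubted arrays or each group's array with the highest Gapdh difference was added after the data were seen.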

Additional observations from a re-analysis of the deposited data

Results flagged for a closer look

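A single array stood apart from the others of its group for 30 of 320 groups of values, which are the 39 named genes and the mean over the 78 genes in each of the 8 groups, where chance gives about 1 in 20. The gap to the nearest array, as a share of the range, was above Dixon's critical value in each. In 18 the array was the lowest and in 12 the highest.

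In striatum, KO Veh 25, an array of doubted genotype, was highest for Uqcr11 (11.72, next 11.43), Uqcrb (13.08, next 12.92), Atp5md (11.71, next 11.61) and Ndufb10 (11.16, next 10.93). KO Veh 29 was lowest for Ndufa4l2 (6.54). KO PDE10i 35 was lowest for Cox4i1 (12.91) and Ndufa4 (11.56) and highest for Cox4i2 (5.48), and KO PDE10i 34 was lowest for Uqcr11 (11.25). WT PDE10i 11 was highest for Cox8b (6.98, next 5.94) and Cox6b2 (7.08, next 6.48). WT PDE10i 13 was lowest for Ndufb10 (10.86) and WT PDE10i 14 for Cox6b1 (12.60). WT Veh 4, the array with the highest Gapdh difference, was lowest for Atp5b (12.98, next 13.18), Ndufs1 (9.84, next 10.08) and Ndufs4 (9.37, next 9.68). WT Veh 3 was lowest for Ndufa10 (10.83) and WT Veh 2 highest for Uqcr11 (11.36).

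In hippocampus, KO PDE10i 35 was lowest for Atp5d (12.19) and Ndufs4 (9.53), and KO PDE10i 36 was highest for Ndufa6 (11.10). KO Veh 30 was lowest for Atp5j2 (12.04) and KO Veh 25 for Ndufa4l2 (6.54). WT PDE10i 13 was highest for Atp5k (12.06) and Cox4i1 (13.13) and lowest for Ndufa3 (12.02). WT PDE10i 11 was lowest for Atp5j2 (12.00) and Cox7a2l (10.56). WT Veh 1 was lowest for Cox6a2 (6.86, next 7.56) and highest for Ndufb6 (11.12).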

How the results depend on the processing

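For single genes, changes of sign were followed only for the 3 with the smallest p of each comparison within a region. None of these was called with all arrays. The regional calls were followed by counts and medians, so changes of sign among them were not checked. Counts of called genes that moved by over 1.5 times are given here, and the cause was not tested. With array weights, 5 genes passed in KO PDE10i against WT PDE10i striatum (5.65% of all genes), 1 in WT PDE10i against WT Veh hippocampus (Ndufs4; 0.846%), 3 in KO PDE10i against WT PDE10i hippocampus (3.62%) and 14 in the regional difference of the WT inhibitor effect (3.39%), each 0 as reported. That regional difference gave 1 call with a signal minimum of 6 (0.323% of the genes kept). It gave 1 with the Gapdh difference as a covariate (0.258% of all genes) and 2 without the highest Gapdh arrays (0.654%). Centring raised the regional counts to 20 in KO Veh (28.6%) and 21 in WT Veh (36.7%). The replicate block, which pairs regions by title number, gave 7 regional calls in KO PDE10i (23.1%). It moved no other count by over 1.5 times. Without the highest Gapdh arrays there were 6 regional calls in KO PDE10i (19.8%). In KO PDE10i against WT PDE10i striatum there were then 3 (2.92%). Without the doubted arrays the counts were 11 (WT PDE10i against WT Veh striatum), 1 (KO Veh against WT Veh striatum), 19 (KO PDE10i against WT PDE10i striatum), 2 (genotype dependence in striatum) and 29 (regional difference of the WT inhibitor effect). Leaving out each array gave 0 to 1 calls in KO PDE10i against WT PDE10i striatum (1 without KO PDE10i 35), 0 to 5 in the regional difference of the WT inhibitor effect (5 without WT PDE10i striatum 14), and regional counts of 4 to 13 in KO PDE10i, 7 to 13 in KO Veh, 30 to 42 in WT PDE10i and 8 to 15 in WT Veh. Shares of all genes are not given beside these counts that leave out 1 array. The 4 to 6 arrays of a group limit small differences, and the 11 dim genes lie near the low end of the signals.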
